A study of Xenopus laevis with 60 samples.

Results

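The genes examined were the FGF ligands, the FGF receptors and the feedback genes of FGF signaling in *Xenopus laevis*, a frog whose genome holds an L and an S subgenome, so that most genes come as a pair of homeologs named .L and .S. They were taken by symbol: every gene named fgf with a number, every fgfr, spry and spred gene, and dusp6, etv4 and etv5, in both homeologs. The rule found 69 of the 49580 genes with a transcript level, 22889 of which carried a symbol. Of the 69, 35 were ligands, 10 were receptors and 17 were feedback genes, with no etv5 among them. The other 7 (fgfr1op2.L, fgfr1op2.S, spryd3.L, spryd3.S, spryd4.S, spryd7.L and spryd7.S) share letters with the rule but are not named for FGF signaling. Both homeologs were present for 32 gene names.

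Fibroblast growth factors are secreted proteins that bind receptor tyrosine kinases and switch on the Ras, MEK and ERK cascade in the receiving cell. ERK in turn drives transcription of factors such as etv4 and of inhibitors of the same cascade, among them the Sprouty proteins (spry), the Spred proteins (spred) and the ERK phosphatase dusp6, so that the pathway limits itself. In the frog blastula and gastrula, FGF signaling is known for its part in forming mesoderm and in patterning the tail and the nervous system. The fgf11 to fgf13 genes encode intracellular relatives that are not secreted. By their names they are counted with the ligands in all counts by role here.

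The study followed RNA in whole embryos across the onset of transcription from the embryo's own genome, and asked which genes depend on transcription, on translation and on the maternal factors pou5f3.2, pou5f3.3 (relatives of mammalian OCT4) and sox3. Untreated embryos were taken at stages 5, 8 and 10.5 with 2 libraries each, at stages 6 and 7 with 1 each, and at stage 9 (8 hours after fertilization at 23 °C). All treated embryos were taken when untreated embryos of the same day were halfway through stage 9, and are called stage 9 here by that time. They came in 8 collections A to H, each of 1 experimental day, and each library held 2 embryos. The study states that cycloheximide given at stage 8 inhibited the advance to stage 9. Between embryos with and without it, such a difference in stage cannot be told apart from the block of protein synthesis. The stage 5 libraries were also depleted of the mitochondrial COX2 and COX3 mRNAs, and those of stage 10.5 carried added synthetic RNA of GFP, mCherry and luciferase. Injected embryos received antisense morpholinos at the 1-cell stage that block translation of their target.

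Collection A held embryos given triptolide (20 µM from stage 1), which stops RNA polymerase II, their vehicle DMSO, and untreated embryos. Collection B held triptolide, cycloheximide (CHX, 500 µg/mL from the start of stage 8), which stops protein synthesis, and DMSO embryos, 2 libraries each as in A. Collection F held embryos with morpholinos against pou5f3.2, sox3 and pou5f3.3 (triple, 40 ng each), the same injection with CHX, pou5f3.2 and pou5f3.3 morpholinos (40 ng each with 40 ng of GFP morpholino), and the control GFP morpholino (120 ng), 3 libraries each. Collection G held pou5f3.3 and sox3 morpholinos (40 ng each with 40 ng of GFP morpholino) and 120 ng of GFP morpholino, 3 libraries each. In collection C all embryos had CHX and received pou5f3.3, sox3 or both morpholinos (40 ng each, single ones with 40 ng of GFP morpholino) or 80 ng of GFP morpholino, 2 libraries each. In collection D all had CHX and received 55 ng of pou5f3.3 with 75 ng of sox3 morpholino or 80 ng of GFP morpholino, 2 libraries each. Collection E had 1 library a group: untreated embryos, 80 ng of GFP morpholino, and pou5f3.3 with sox3 morpholinos (40 ng each, without GFP morpholino). Collection H held 120 ng of GFP morpholino without CHX (2 libraries) and with CHX (3 libraries), and the triple injection (40 ng each) with CHX (2 libraries). The CHX libraries of H were marked as discarded. The study gives a likely problem with the CHX treatment as the reason, since their expression was closer to that of untreated embryos. Neither E nor H entered a comparison.

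Replicates of a stage 9 group came from 1 day, and for the other stages the labels give no collection, so p-values measure only the spread between these sets of embryos. Stage therefore cannot be told apart from the day and the parents of the embryos. Each library is RNA of whole embryos, so fewer cells of a type and less RNA per cell cannot be told apart. Exon levels are given in TPM and intron levels in RPKM. Intron reads come from transcripts that are not yet spliced, so they report on new RNA where exons also hold RNA stored in the egg. The authors' intron regions left out stretches with read coverage above a threshold at stage 5. Intron values near 0 at stage 5 are therefore partly built in, and intron rises and folds over stage 5 are not free of that choice. Exon counts ran from 6809284 to 25358689 per library, with the stage 8 libraries lowest. Intron reads made up 0.562 to 0.578% of exon plus intron counts at stage 5, 7.38 to 7.66% at stage 9 in collection A and 14.9% at stage 10.5. A list of 16 late blastula genes summed to 1020.1 to 1116 TPM at stage 9 in collection A, against 0.325 to 0.468 TPM at stage 5, as the stage labels say. Calls required, in exon or intron counts, a difference of 1.5 or more on the log2 scale with an adjusted p below 0.05, and only called genes are described as risen or fallen. Intron entries passed the filter on low counts in the groups where they were high, so medians over them are descriptions and no more. Exon entries needed to pass in 1 library alone, so low genes could be tested through the group where they were high. Counts of genes called carry this too.

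Of the 69 genes, 49 passed the filter on exon counts and 29 of these also had an intron entry. Over all 27602 genes tested, 9916 had an intron entry. Shares of genes called on either entry depend on this difference too, in every comparison below. The 20 that did not pass were all ligands: both homeologs of fgf1, fgf5, fgf6, fgf10, fgf11, fgf19, fgf23.1 and fgf23.2, and fgf2.S, fgf9.S, fgf12.S and fgf22.L. The highest level among them in any library was 0.623 TPM (fgf9.S), and fgf1.S and fgf23.1.S had no exon read at all. At this depth these ligands were at or near the limit of detection. All 10 receptors, 16 of 17 feedback genes and 13 of 35 ligands reached a mean of 1 TPM in some group.

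Receptors had the highest maternal levels. In the stage 5 libraries, fgfr1.S stood at 100.8 and 99.6 TPM, fgfr1.L at 85.0 and 84.7, fgfr4.S at 77.6 and 79.1, and fgfr4.L at 56.4 and 57.6. These 4 tyrosine kinase receptors were above every ligand. The stage 5 libraries differed least of 38 replicate pairs over all genes, with a chi-square per degree of freedom of 1.25 (highest pair 18.6). Whether they came from separate sets of embryos was not checked. Next came fgfr3.S (29.7 and 29.6 TPM), fgfr3.L (18.7 and 18.4) and fgfr2.L (6.08 and 6.29). The S homeolog of fgfr2 was near 0 (0.096 and 0.067 TPM), as was fgfrl1.L, with 0 in both libraries. The decoy receptor fgfrl1 lacks a kinase domain.

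Several feedback genes were also stored in the egg. At stage 5, etv4.L, an ETS transcription factor, stood at 55.1 and 55.0 TPM, spry1.L at 43.4 and 45.8, spry1.S at 40.9 and 40.4, spred2.L at 31.5 and 32.5, and spred2.S at 20.6 and 18.9. Lower levels were found for spry2.L (7.69 and 6.92 TPM), spry2.S (5.79 and 5.85), spred3.S (8.96 and 8.71), dusp6.L (4.70 and 5.63) and dusp6.S (2.46 and 2.19). The ligands were low throughout at stage 5. The highest was fgf7.L (6.48 and 6.04 TPM), with fgf7.S (6.24 and 5.24) overlapping it, followed by fgf2.L (3.23 and 3.26), fgf4.S (1.73 and 2.21) and fgf13.S (1.48 and 1.70). In all, 30 of the 69 genes had at least 1 TPM at stage 5, all among the 49 tested, beside 18709 of all 27602 genes tested.

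**Figure D1:**
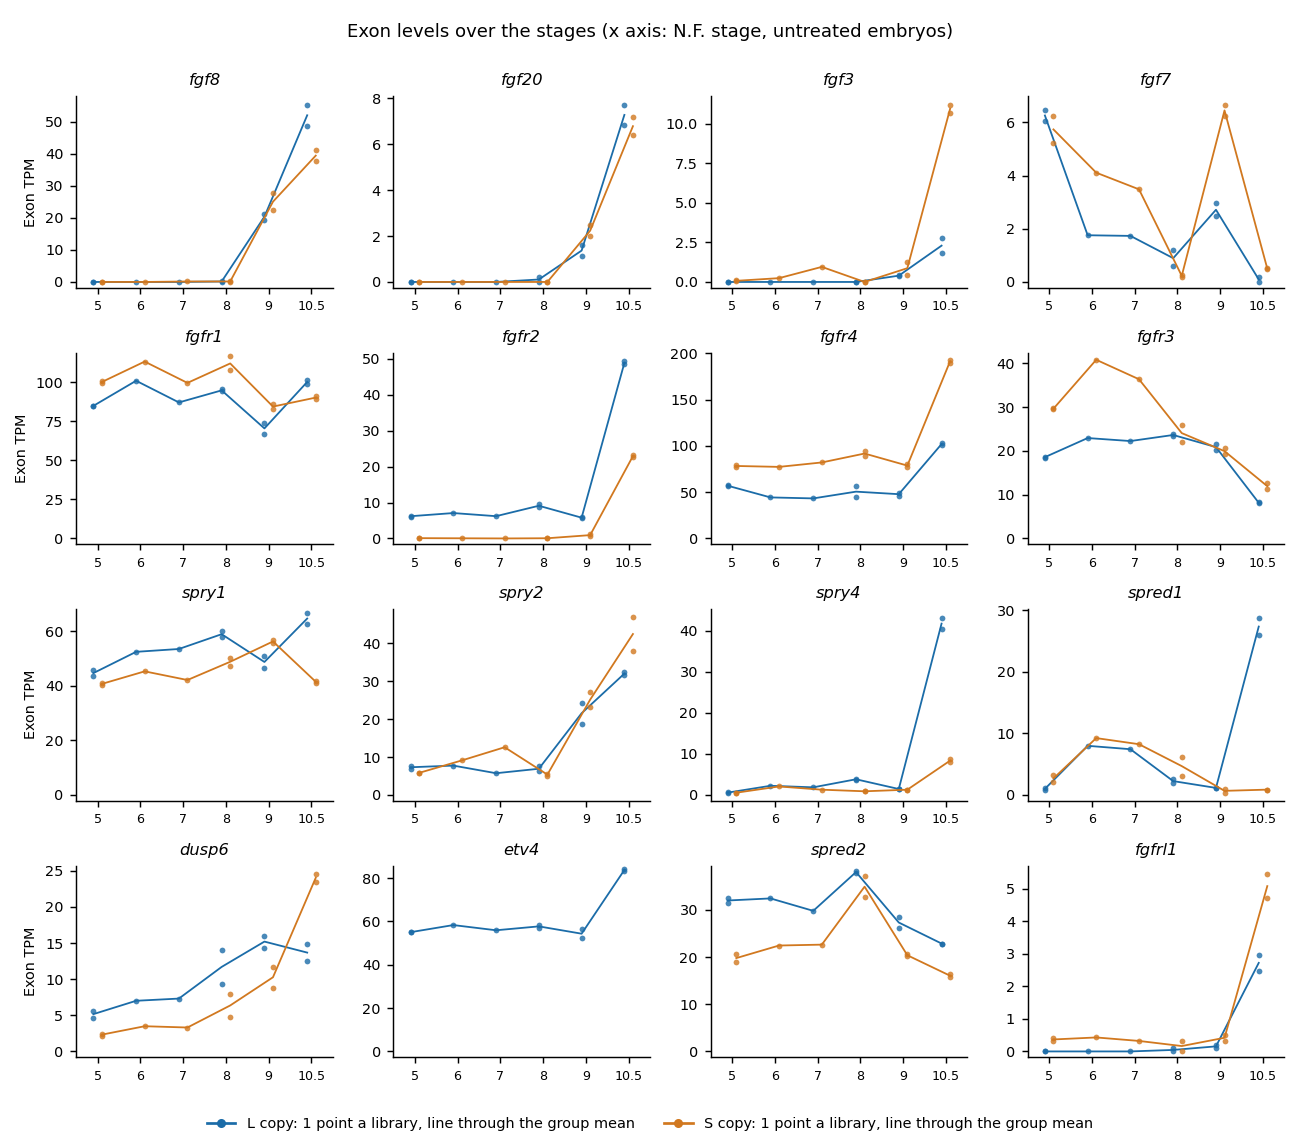
Exon level in TPM (vertical axis) at stages 5, 6, 7, 8, 9 (untreated, collection A) and 10.5 (horizontal axis) for 16 gene names, with L homeologs in blue and S homeologs in orange. Points are libraries and lines join the group means. The receptors fgfr1 and fgfr4 are present from stage 5 on, whereas both homeologs of fgf8 are at or near 0 up to stage 8 and reach 48.9 and 55.3 TPM (fgf8.L) and 37.7 and 41.3 TPM (fgf8.S) at stage 10.5.

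Between stage 5 and stage 8 the group moved little. At stage 8, 4 of 49 genes were higher (8.31% of all 27602 genes were) and 3 were lower (4.39% of all). The 3 that were lower were ligands with RNA in the egg. fgf2.L was at 0 TPM in both stage 8 libraries, against 3.23 and 3.26 at stage 5, so it was at least 2.89-fold lower. fgf7.S stood at 0.185 and 0.274 TPM at stage 8, against 6.24 and 5.24 at stage 5 (log2 −4.61, SE 0.48, adjusted p = 6.41e-11), and fgf7.L at 1.197 and 0.591 TPM, against 6.48 and 6.04 (log2 −2.79, SE 0.38). No stage 8 library overlapped stage 5 for either homeolog. Triptolide embryos of collection A, collected later and blocked in transcription, held more of both fgf7 homeologs than the stage 8 libraries (values below). With CHX, fgf2.L was at 0 TPM in collection B and at a mean of 4.76 TPM with GFP morpholino in collection D. Loss of egg RNA by stage 8 therefore cannot be told apart from differences in day and parents. These differences were not tested.

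The 4 that rose by stage 8 were feedback genes. spry4.L had 4.00 and 3.64 TPM at stage 8, against 0.436 and 0.694 at stage 5 (log2 2.76, SE 0.36, adjusted p = 1.85e-08), and spry3.L had 1.81 and 3.21 TPM, against 0.520 and 0.543 (log2 2.24, adjusted p = 0.00262). Introns of spred2.L were at 0.065 and 0.049 RPKM at stage 8, against 0.016 and 0.014 at stage 5 (log2 1.91). Introns of spry2.S were at 0.039 and 0.057 RPKM, against 0 in both stage 5 libraries, at least 2.83-fold higher. The last call and that of spry3.L rested on few reads: without stage 8 replicate 2 the adjusted p was 0.113 for spry2.S and 0.153 for spry3.L, and without stage 5 replicate 1 or 2 it was 0.0616 or 0.0595 for spry2.S. Exons of spry4.L were lower again in the later untreated embryos of collection A (values below). The highest mean of spry3.L was in triptolide embryos of that collection, among groups of 2 or more libraries outside collection H. For the 4 genes that rose, too, stage cannot be told apart from the day and the parents of the embryos.

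At stage 9 in collection A, 27 of 49 genes had risen over stage 5 (35.4% of all genes) and 4 had fallen (6.44% of all). By role, 5 of 15 ligands tested, 7 of 10 receptors, 13 of 17 feedback genes and 2 of the 7 other genes rose. Introns carried most of it, with 26 of 29 intron entries and 10 of 49 exon entries called higher. Over all genes these were 8098 of 9916 intron entries and 2648 of 27602 exon entries. The median intron difference was 6.70 on the log2 scale for these genes and 3.54 for all intron entries. Both values carry the choice of intron regions without stage 5 coverage.

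Among the ligands, fgf8, an FGF active in the early mesoderm of the frog, reached the highest levels. Exons of fgf8.L were at 19.5 and 21.3 TPM at stage 9, against 0 in both stage 5 libraries, at least 149-fold higher, and exons of fgf8.S were at 22.4 and 27.8 TPM, against 0, at least 171-fold higher. Introns stood at 6.56 and 7.65 RPKM for fgf8.L and at 7.07 and 8.69 RPKM for fgf8.S, again against 0 in both stage 5 libraries, so at least 386-fold and 390.3-fold higher. At stage 8, 1 library of each had a low level, with 0.286 and 0 TPM for fgf8.L and 0.306 and 0 TPM for fgf8.S.

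The next ligands were far lower. fgf20.S reached 1.98 and 2.49 TPM and fgf20.L 1.62 and 1.11 TPM at stage 9, against 0 in both stage 5 libraries, at least 9.32-fold and 6.63-fold higher. fgf3.S reached 0.457 and 1.28 TPM, against 0.094 and 0.049 at stage 5 (log2 3.28, SE 0.75, adjusted p = 0.000125). The spread between its stage 9 libraries was wide, but both lay above stage 5.

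The receptors showed new transcription beside a level exon pool. Introns of fgfr4.S were at 4.30 and 4.66 RPKM at stage 9, against 0.009 in both stage 5 libraries (log2 8.69, SE 0.35, adjusted p = 1.35e-27), while its exons were at 80.8 and 76.7 TPM, against 77.6 and 79.1. Introns of fgfr4.L were at 2.51 and 2.70 RPKM, against 0.016 and 0.023 (log2 6.82, SE 0.31), with exons at 49.6 and 46.1 TPM, against 56.4 and 57.6. fgfr2.L behaved alike, with introns at 0.395 and 0.538 RPKM, against 0.005 and 0.009, and exons at 5.62 and 5.94 TPM, against 6.08 and 6.29. In contrast, fgfr2.S, which the egg hardly held, rose in exons as well, to 0.687 and 1.16 TPM at stage 9, against 0.096 and 0.067 at stage 5 (log2 3.31). Introns of fgfr1.L rose to 0.174 and 0.211 RPKM, against 0.009 and 0.008. Introns of fgfrl1.L (0.045 and 0.054 RPKM, against 0 in both) and fgfrl1.S (0.028 and 0.025 RPKM, against 0.001 and 0) rose too, at low levels.

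In the feedback group, introns of spry2.L were at 4.21 and 5.29 RPKM at stage 9, against 0 in both stage 5 libraries, at least 106-fold higher, and introns of spry2.S at 2.67 and 2.57 RPKM, against 0, at least 138-fold higher. Exons of spry2.S followed, at 23.2 and 27.1 TPM, against 5.79 and 5.85 (log2 1.98, SE 0.13, adjusted p = 2.01e-18). Introns of spry1.S stood at 4.92 and 5.84 RPKM, against 0, and those of spry1.L at 3.99 and 5.22 RPKM, against 0.042 and 0. The ERK phosphatase dusp6 rose in both homeologs, dusp6.L with introns at 2.99 and 3.06 RPKM, against 0.015 and 0.047 (log2 6.32, SE 0.35), and dusp6.S with introns at 1.55 and 1.91 RPKM, against 0.012 and 0.013 (log2 6.70), and with exons at 8.79 and 11.8 TPM, against 2.46 and 2.19 (log2 2.00).

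Introns of spred1.L (0.175 and 0.273 RPKM at stage 9, against 0.002 and 0 at stage 5), spred2.L (0.336 and 0.399, against 0.016 and 0.014), spred2.S (0.276 and 0.336, against 0.016 and 0.011) and etv4.L (0.647 and 0.661, against 0.024 and 0.029) also rose, by 7.40, 4.42, 4.30 and 4.45 on the log2 scale. spry3.L rose in exons (3.11 and 3.23 TPM, against 0.520 and 0.543), and spry4.L and spry4.S in introns, both at most at 0.058 RPKM. The level of spry3.L was not called lower with triptolide. Among groups of 2 or more libraries outside collection H, its highest mean was 4.07 TPM, in triptolide A. The call of spry4.S was lost without any 1 of the 4 libraries (adjusted p between 0.0602 and 0.14). Of the 7 other genes, fgfr1op2.S and spryd7.L rose in introns, and spryd7.L lost its call without stage 5 replicate 2 (adjusted p = 0.0532) or stage 9 replicate 2 (0.0589). Exons of etv4.L stood at 56.3 and 52.4 TPM at stage 9, against 55.1 and 55.0 at stage 5.

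The 4 genes that fell by stage 9 were spred1.S and 3 genes counted as ligands, 1 of them the intracellular relative fgf13.S. fgf13.S was at 0.161 and 0.219 TPM at stage 9, against 1.48 and 1.70 at stage 5 (log2 −3.16, SE 0.46), and fgf2.L at 0.893 and 0.325 TPM, against 3.23 and 3.26 (log2 −2.47). spred1.S was at 0.357 and 0.973 TPM, against 3.22 and 2.15 (log2 −2.13). fgf4.S was at 0.266 and 0 TPM, against 1.73 and 2.21 (log2 −3.61, adjusted p = 0.005), a call lost without stage 9 replicate 2 (adjusted p = 0.0566). That call was also lost with DESeq2 (adjusted p = 0.308). Neither homeolog of fgf7 was called at stage 9, where fgf7.S was at 6.24 and 6.66 TPM and fgf7.L at 2.97 and 2.46 TPM, above their stage 8 values. That difference was not tested. Levels also varied between the collections of stage 9: exons of fgf2.L were at 4.55 and 4.97 TPM with CHX and GFP morpholino in D and at 0 TPM in both CHX libraries of B, and those of spred1.S at 18.3 and 18.5 TPM in the D group and at 0.444 and 0.2 TPM in the same group of C.

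Triptolide embryos lacked most of this new RNA. In collection A, 23 of 49 genes were lower in triptolide embryos than in DMSO embryos (27.4% of all genes) and 2 were higher (0.167% of all). In collection B, 25 were lower (29.8% of all) and 0 were higher by edgeR (0.188% of all), where DESeq2 also called 25 lower and 0 higher and 31 genes passed an unadjusted p of 0.05 in either direction. By role, 5 ligands, 7 receptors and 11 feedback genes fell in each collection, together with 2 of the 7 other genes, spryd3.L and spryd7.L, in collection B. The call of spryd7.L was lost without DMSO B replicate 2 (adjusted p = 0.0638). The median intron difference was −5.26 in A and −6.81 in B, against −2.73 and −3.36 for all intron entries. Intron reads were lower across the genome, at 0.798 to 0.799% of exon plus intron counts in triptolide A, against 6.91 to 7.31% in DMSO A, and at 0.423 to 0.505% in triptolide B, against 5.29 to 5.46% in DMSO B.

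Exons of fgf8.L were at 0.233 and 0.119 TPM in triptolide A, against 23.5 and 21.3 in DMSO A (log2 −6.77, SE 0.36, adjusted p = 2.84e-22), and at 0 in both triptolide B libraries, against 16.4 and 16.1 in DMSO B, at least 131-fold lower. Exons of fgf8.S were at 0.187 and 0.319 TPM in triptolide A, against 28.7 and 25.3 in DMSO A, and at 0.299 and 0 TPM in triptolide B, against 22.9 and 24.3 in DMSO B (log2 −7.18). Both homeologs of fgf20 were at 0 in all 4 triptolide libraries, in exons and in introns. In DMSO, exons of fgf20.S stood at 1.81 and 1.30 TPM in A and at 2.08 and 1.68 TPM in B. Introns of fgf3.S were likewise at 0 in the triptolide libraries, against 0.220 and 0.398 RPKM in DMSO A and 0.067 and 0.033 RPKM in DMSO B.

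Of the 17 feedback genes, 5 fell in exons in collection A and 3 in collection B, beside 1572 and 1712 of all 27602 genes. Exons of dusp6.S were at 0.571 and 0.911 TPM in triptolide A, against 7.85 and 8.08 in DMSO A (log2 −3.27, SE 0.29), and at 1.22 and 1.68 TPM in triptolide B, against 6.86 and 7.57 in DMSO B (log2 −2.21). Exons of dusp6.L were at 1.91 and 2.15 TPM in triptolide A, against 13.6 and 13.0 in DMSO A (log2 −2.56), and those of spry2.L at 2.85 and 3.67 TPM, against 20.5 and 17.1 (log2 −2.38). The fall of spry4.L in collection A was lost without triptolide A replicate 1 (log2 −1.39 in exons, adjusted p = 0.0883 in introns). Introns of spry1.S were at 0.068 and 0.282 RPKM in triptolide A, against 4.50 and 4.55 in DMSO A, and at 0 in both triptolide B libraries, against 3.21 and 4.10 in DMSO B, at least 23.5-fold lower. Introns of etv4.L were at 0.026 and 0.023 RPKM in triptolide A, against 0.530 and 0.578 in DMSO A (log2 −4.29), and at 0.007 and 0.018 in triptolide B, against 0.332 and 0.373 in DMSO B (log2 −4.66).

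Among the receptors, introns of fgfr4.L were at 0.130 and 0.182 RPKM in triptolide A, against 2.84 and 2.61 in DMSO A (log2 −3.93, SE 0.23), and at 0 and 0.005 RPKM in triptolide B, against 0.987 in both DMSO B libraries (log2 −7.94, SE 0.52). It was the 1 gene of 49 whose triptolide effect differed between collections (lower in B minus A, 0.377% of all genes). The difference was −4.02 (SE 1.00, adjusted p = 0.0442) and was lost without any 1 of the 8 libraries, with adjusted p between 0.0504 and 0.401. By edgeR 0 of 49 differed in the other direction (0.163% of all), with 18 genes at an unadjusted p under 0.05 in either direction, where DESeq2 called 2 lower and 1 higher, none of them fgfr4.L (adjusted p = 0.124).

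The 2 genes that rose in triptolide A were homeologs of the intracellular FGF relative fgf13. fgf13.L was at 0.570 and 0.545 TPM in triptolide A, against 0.042 and 0 in DMSO A (log2 4.57, adjusted p = 0.00997), and fgf13.S at 0.495 and 0.423 TPM, against 0.046 and 0.088 (log2 2.81, adjusted p = 0.00598). The calls were lost without DMSO A replicate 2 for fgf13.L (adjusted p = 0.0911) and without DMSO A replicate 1 for fgf13.S (adjusted p = 0.056). Neither homeolog of fgf7 was called in triptolide A: fgf7.S was at 5.08 and 5.10 TPM in triptolide A, against 4.62 and 5.40 in DMSO A (log2 0.17, adjusted p = 0.505), and fgf7.L at 2.86 and 3.12 TPM, against 1.49 and 2.28 (log2 0.80, adjusted p = 0.0223).

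Cycloheximide embryos, in which protein synthesis was blocked from stage 8 on, had intron reads of many of these genes. In collection B, 20 of 49 genes were higher in CHX than in triptolide embryos (14.2% of all genes) and 0 were lower by edgeR (0.496% of all), where DESeq2 also gave 20 and 0, and 25 genes passed an unadjusted p of 0.05 in either direction. By role these were 4 ligands, 7 receptors and 9 feedback genes. Against DMSO of the same collection, 1 gene was higher in CHX (2.21% of all) and 19 were lower (20.6% of all), namely 4 ligands, 4 receptors and 11 feedback genes. The triptolide and the DMSO libraries are those of the previous comparison. Intron reads stood at 1.70 to 2.09% of exon plus intron counts in CHX, and the median intron difference from DMSO was −2.18 for these genes and −1.79 for all.

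fgf8 lay between the inhibitor extremes. Exons of fgf8.L were at 5.06 and 4.80 TPM in CHX, against 16.4 and 16.1 in DMSO (log2 −1.78, SE 0.19, adjusted p = 2.94e-11) and 0 in both triptolide libraries, at least 38.1-fold higher than triptolide. Exons of fgf8.S were at 6.40 and 8.71 TPM in CHX, against 22.9 and 24.3 in DMSO (log2 −1.72) and 0.299 and 0 in triptolide (log2 5.46). The exon calls of the fgf20 homeologs had opposite directions. Exons of fgf20.L were at 1.67 and 1.55 TPM in CHX, against 0.680 and 0.380 in DMSO (log2 1.55, SE 0.46, adjusted p = 0.00664), whereas exons of fgf20.S were at 0.354 and 0.849 TPM, against 2.08 and 1.68 (log2 −1.73, SE 0.45, adjusted p = 0.00177). The rise of fgf20.L was lost without DMSO B replicate 2 (log2 1.17, adjusted p = 0.124). It was also lost with DESeq2 (log2 1.51, adjusted p = 0.0955) and with scaling by exon counts alone (log2 1.45). Introns of fgf20.L were at 0.384 and 0.286 RPKM in CHX, against 0.419 and 0.215 in DMSO. The fall of fgf20.S was lost in exons without CHX B replicate 1 (log2 −1.16), while its introns (log2 −2.23) kept their call. The difference between the homeologs was not tested.

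The receptors differed in how much of their intron signal CHX embryos had. Introns of fgfr4.L were at 1.33 and 0.833 RPKM in CHX, on both sides of the 0.987 of both DMSO libraries (log2 0.19, adjusted p = 0.461), and those of fgfrl1.S at 0.053 and 0.040 RPKM, against 0.021 and 0.026 (log2 1.02, adjusted p = 0.000631, under the fold required). Introns of fgfr4.S were at 0.981 and 0.691 RPKM in CHX, against 2.04 and 1.78 in DMSO (log2 −1.13). fgfr1.L and fgfr2 fell further. Introns of fgfr1.L were at 0.018 and 0.033 RPKM, against 0.581 and 0.565 in DMSO (log2 −4.48, SE 0.29, adjusted p = 1.53e-18), those of fgfr2.L at 0.175 and 0.249, against 1.39 and 1.26 (log2 −2.62), and those of fgfr2.S at 0.048 and 0.054, against 0.392 and 0.408 (log2 −2.93).

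The 11 feedback genes lower in CHX than in DMSO were both homeologs of dusp6, spred2, spry1 and spry2, with spred1.L, spry4.L and etv4.L. Introns of etv4.L were at 0.012 and 0.014 RPKM in CHX, against 0.332 and 0.373 in DMSO (log2 −4.71, SE 0.28, adjusted p = 3.89e-20), and overlapped the 0.007 and 0.018 RPKM of triptolide (log2 −0.05, SE 0.55, adjusted p = 1). Introns of spry2.L were at 0.285 and 0.114 RPKM, against 2.69 and 2.62 (log2 −3.62), those of spry2.S at 0.101 and 0.170, against 1.56 and 1.57 (log2 −3.52), and those of spry1.L at 0.254 and 0.428, against 3.49 and 3.42 (log2 −3.30). dusp6.S had a smaller difference, with 0.372 and 0.268 RPKM in CHX, against 1.00 and 1.09 in DMSO (log2 −1.65, SE 0.32). Without CHX B replicate 2 it stood at −1.47, under the fold required.

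Some CHX calls rested on single libraries. Against DMSO, those of fgf3.S (adjusted p = 0.24 without CHX B replicate 2 and 0.263 without DMSO B replicate 1), spry4.L (0.368 without CHX B replicate 1 and 0.328 without DMSO B replicate 2) and spred1.L (log2 −1.33 without CHX B replicate 1 and −1.42 without DMSO B replicate 2) were lost. Against triptolide, those of spry2.L (adjusted p = 0.133 without CHX B replicate 1), fgfrl1.L (0.165 without CHX B replicate 1 and 0.0516 without triptolide B replicate 1), fgfr1.L (0.133 without CHX B replicate 2, and 0.0646 and 0.0589 without triptolide B replicates 1 and 2) and spry1.L (0.0571 without CHX B replicate 2, and 0.0554 and 0.0665 without triptolide B replicates 1 and 2) were lost.

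**Figure D2:**
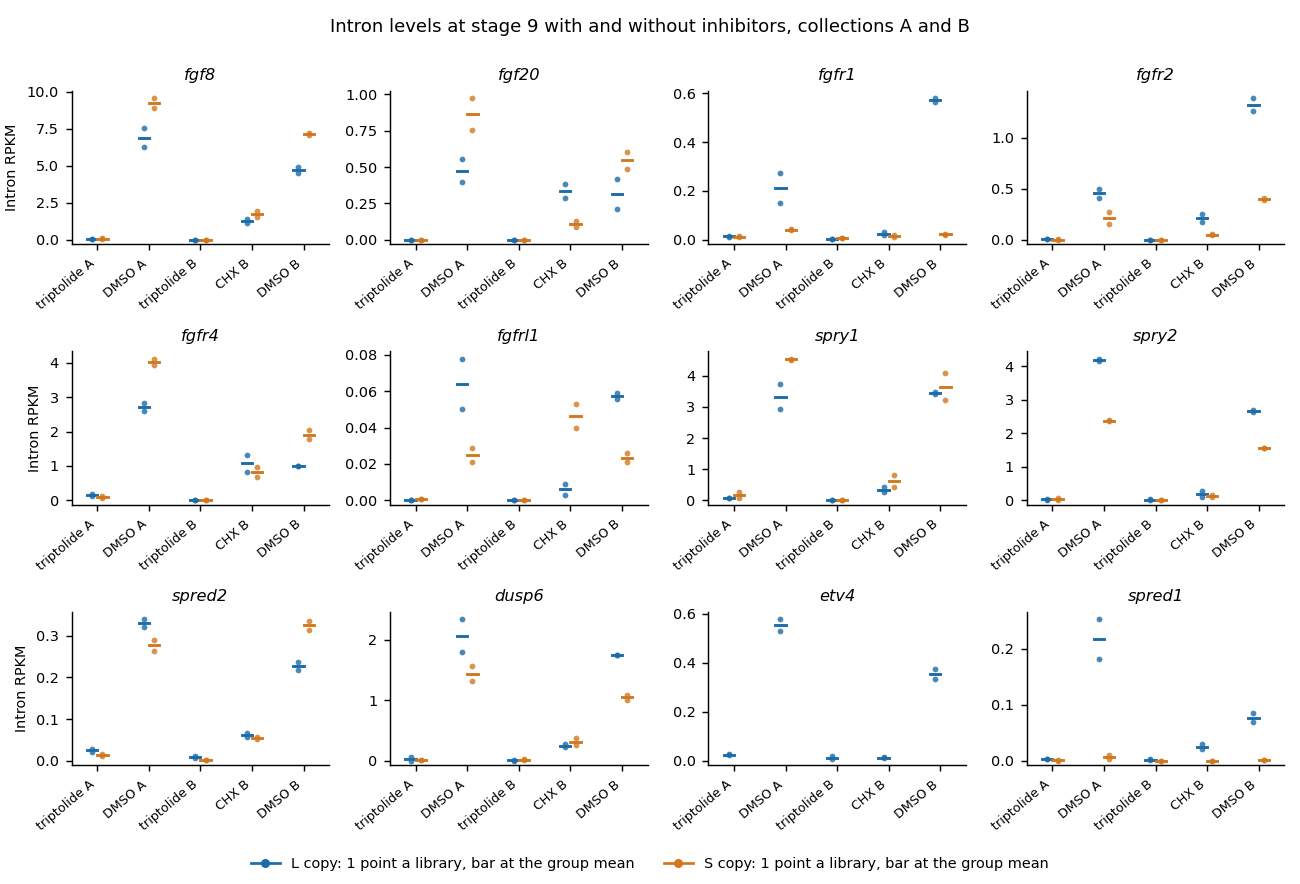
Intron level in RPKM (vertical axis) at stage 9 in triptolide A, DMSO A, triptolide B, CHX B and DMSO B embryos (horizontal axis, left to right) for 12 genes. Points are libraries and bars are group means. Introns of fgfr4.L are at 1.33 and 0.833 RPKM in CHX B beside 0.987 in DMSO B, whereas those of etv4.L are at 0.012 and 0.014 RPKM in CHX B.

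Genes that rose by stage 9 and fell with triptolide in both collections numbered 23 of the 49 tested, and 13 of these 23 were also maternal. They were 5 ligands (fgf8.L, fgf8.S, fgf20.L, fgf20.S and fgf3.S), 7 receptors (fgfr1.L, fgfr2.L, fgfr2.S, fgfr4.L, fgfr4.S, fgfrl1.L and fgfrl1.S) and 11 feedback genes (both homeologs of dusp6, spred2, spry1 and spry2, with spred1.L, spry4.L and etv4.L). All but fgf3.S, spry4.L and etv4.L, hence 20, were also higher in CHX than in triptolide embryos. Over all 27602 genes tested, 6700 met the same rule for activation, 5276 of them maternal, and 3199 were also higher in CHX than in triptolide.

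The morpholino comparisons asked which of these genes depended on pou5f3.2, pou5f3.3 and sox3. Since the morpholinos block translation, the RNA of the targets checks nothing: pou5f3.3.L stood at 496 to 529 TPM in the triple group of collection F, against 433 to 437 with GFP morpholino, and sox3.L at 362 to 413 TPM, against 377 to 405. In collection F the triple group had 1 gene of 49 higher (3.86% of all genes) and 4 lower (2.83% of all) than the GFP group, and the pou5f3.2 and pou5f3.3 group 1 higher (2.24% of all) and 2 lower (1.62% of all). The GFP libraries are the same in both comparisons. The median intron difference was 0.40 for the triple group and −0.07 for the double group, against 0.26 and 0.33 for all.

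The clearest differences were in the Sprouty gene spry2. Introns of spry2.S were at 0.550, 0.424 and 0.320 RPKM in the triple group, against 2.36, 2.39 and 2.07 in the GFP group (log2 −2.41, SE 0.16, adjusted p = 1.48e-18), and at 0.845, 0.724 and 0.727 RPKM in the double group (log2 −1.61, SE 0.14, adjusted p = 1.73e-13). Introns of spry2.L were at 1.13, 0.651 and 0.597 RPKM in the triple group, against 3.66, 3.23 and 3.36 (log2 −2.11, SE 0.18, adjusted p = 1.70e-14). In the double group spry2.L had a log2 difference of −1.23 (adjusted p = 1.60e-08), under the fold required. No treated library reached the GFP range in any of these. Exons of spry2.L moved the same way, by −1.46 in the triple group and −1.02 in the double group.

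Introns of spry1.S were at 1.79, 2.02 and 2.61 RPKM in the triple group, against 4.32, 6.38 and 6.68 in the GFP group (log2 −1.51, SE 0.22, adjusted p = 3.10e-07). This value sat at the fold required and was −1.38 to −1.48 without triple replicate 1 or 2 or without GFP replicate 2 or 3, with other scalings and with DESeq2. Introns of spry1.L, in contrast, had a log2 difference of 0.40 (adjusted p = 0.25). Introns of the ligand fgf3.S were at 0, 0.008 and 0 RPKM in the triple group and at 0, 0.009 and 0 RPKM in the double group, against 0.043, 0.075 and 0.080 in the GFP group (log2 −4.13 and −4.16, adjusted p = 0.00229 and 0.00294).

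The genes that rose in collection F were Spred genes. Introns of spred2.L were at 0.256, 0.193 and 0.194 RPKM in the triple group, against 0.046, 0.050 and 0.053 in the GFP group (log2 2.07, SE 0.17, adjusted p = 9.88e-15). Introns of spred1.L were at 0.466, 0.363 and 0.383 RPKM in the double group, against 0.112, 0.087 and 0.141 (log2 1.79, SE 0.17, adjusted p = 2.91e-12). Each had a smaller difference in the other group, of 1.06 for spred2.L in the double group (adjusted p = 3.64e-05) and of 1.24 for spred1.L in the triple group (adjusted p = 3.01e-07). Exons of spred2.L were level, with means of 23.7 TPM in the triple group and 23.8 TPM in the GFP group.

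Some genes passed the p but not the fold. Introns of fgf8.S were at 3.99, 2.53 and 2.67 RPKM in the triple group and at 3.18, 3.35 and 2.89 RPKM in the double group, against 5.32, 5.85 and 5.93 in the GFP group (log2 −0.93 and −0.90, adjusted p = 2.45e-08 and 7.88e-08). Introns of fgf8.L were at 5.25, 3.83 and 3.06 RPKM in the triple group and at 4.04, 4.49 and 3.81 RPKM in the double group, overlapping the 4.13, 4.74 and 4.28 RPKM of the GFP group (log2 −0.15 and −0.14, adjusted p = 0.466 and 0.6). Introns of fgfr4.L were at 0.763, 0.694 and 0.829 RPKM in the triple group, against 1.55, 1.47 and 1.63 (log2 −1.07, adjusted p = 4.58e-07), and those of fgfr4.S differed by −0.95. Exons of fgfr4.L were not lower, with means of 63.2 TPM in the triple group and 45.5 TPM in the GFP group.

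Between the triple and the double group, which differ by the sox3 morpholino, 0 of 49 genes were called higher (0.257% of all) and 0 lower (0.696% of all) by edgeR, with 11 genes at an unadjusted p under 0.05 and 0 calls by DESeq2. The most marked difference below the fold required was in etv4.L, whose introns were at 0.312, 0.284 and 0.226 RPKM in the triple group, against 0.580, 0.554 and 0.731 in the double group (log2 −1.17, SE 0.12, adjusted p = 3.24e-10). The double group overlapped the GFP group there (0.708, 0.617 and 0.611 RPKM). Introns of spred2.L differed by 1.02 (adjusted p = 4.11e-07).

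In collection G, where pou5f3.3 and sox3 morpholinos were injected, 4 of 49 genes were higher (3.41% of all genes) and 2 were lower (1.45% of all) than with GFP morpholino. spry2.S fell again, with introns at 0.316, 0.223 and 0.295 RPKM, against 0.851, 0.925 and 0.956 in the GFP group (log2 −1.85, SE 0.22, adjusted p = 2.03e-09). spry2.L introns differed by −0.67 (adjusted p = 0.0279). Introns of spred1.L were at 0.114, 0.109 and 0.129 RPKM, against 0.042, 0.026 and 0.020 (log2 1.85, SE 0.30, adjusted p = 4.42e-06). Introns of fgf20.L were at 0.286, 0.217 and 0.086 RPKM, against 0.436, 0.376 and 0.783 (log2 −1.51, adjusted p = 0.00969), a call lost without GFP replicate 3 (log2 −1.16) or morpholino replicate 3 (log2 −1.19). It was also lost with DESeq2 (adjusted p = 0.0649) and stood just under the fold required with either other scaling (log2 −1.43 and −1.42), with no filter (−1.46), in a fit of these libraries alone (−1.45) and with the replicate block (−1.50).

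Both homeologs of fgfr2 were higher in collection G, unevenly between libraries. Introns of fgfr2.L were at 0.916, 0.240 and 0.885 RPKM with the morpholinos, against 0.200, 0.147 and 0.178 with GFP morpholino (log2 1.80, SE 0.25, adjusted p = 1.32e-07), and those of fgfr2.S at 0.287, 0.069 and 0.350 RPKM, against 0.057, 0.044 and 0.043 (log2 2.101, SE 0.38, adjusted p = 2.47e-05). Morpholino replicate 2 lay close to the GFP libraries for both. In collection F introns of fgfr2.L stood at 0.290, 0.169 and 0.350 RPKM in the triple group, against 0.256, 0.284 and 0.258 (log2 −0.04, adjusted p = 0.97). Exons of fgfrl1.S were at 0.189, 0.383 and 0.086 TPM in the morpholino group of collection G, against 0 in all 3 GFP libraries (adjusted p = 0.0468). That call was lost without any 1 of 5 libraries, with adjusted p of 0.0974 to 0.13 without a GFP library and 0.0616 and 0.209 without morpholino replicates 1 and 2.

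Other measures moved with the collection G and F groups. Intron reads were 5.47 to 5.76% of exon plus intron counts with the morpholinos in G, against 3.85 to 4.2% with GFP morpholino, and a list of 8 endoderm genes summed to 15.9 to 22.3 TPM, against 11.4 to 15.8. In F, a list of 8 gastrula mesoderm genes summed to 25.5 to 29.2 TPM in the triple group and 25.7 to 32.5 in the double group, against 34.4 to 35.7 with GFP morpholino, and a list of 7 ectoderm genes to 239.9 to 269.4 TPM in the triple group, against 208.4 to 225.6. These sums do not stand for each gene. In the triple group, 3 of the 7 ectoderm genes were called lower (2.83% of all genes) and 0 higher (3.86% of all). Of the 8 mesoderm genes, 2 were lower and 1 higher there. In the double group 0 of them were called (1.62% of all lower, 2.24% higher). The 8 endoderm genes summed to 30.1 to 49.3 TPM in the triple and 49.4 to 55.3 in the double group, against 35.0 to 48.2. Of them, 3 were called higher and 0 lower in each group. The part of these measures in the differences of the FGF genes was not tested.

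**Figure D3:**
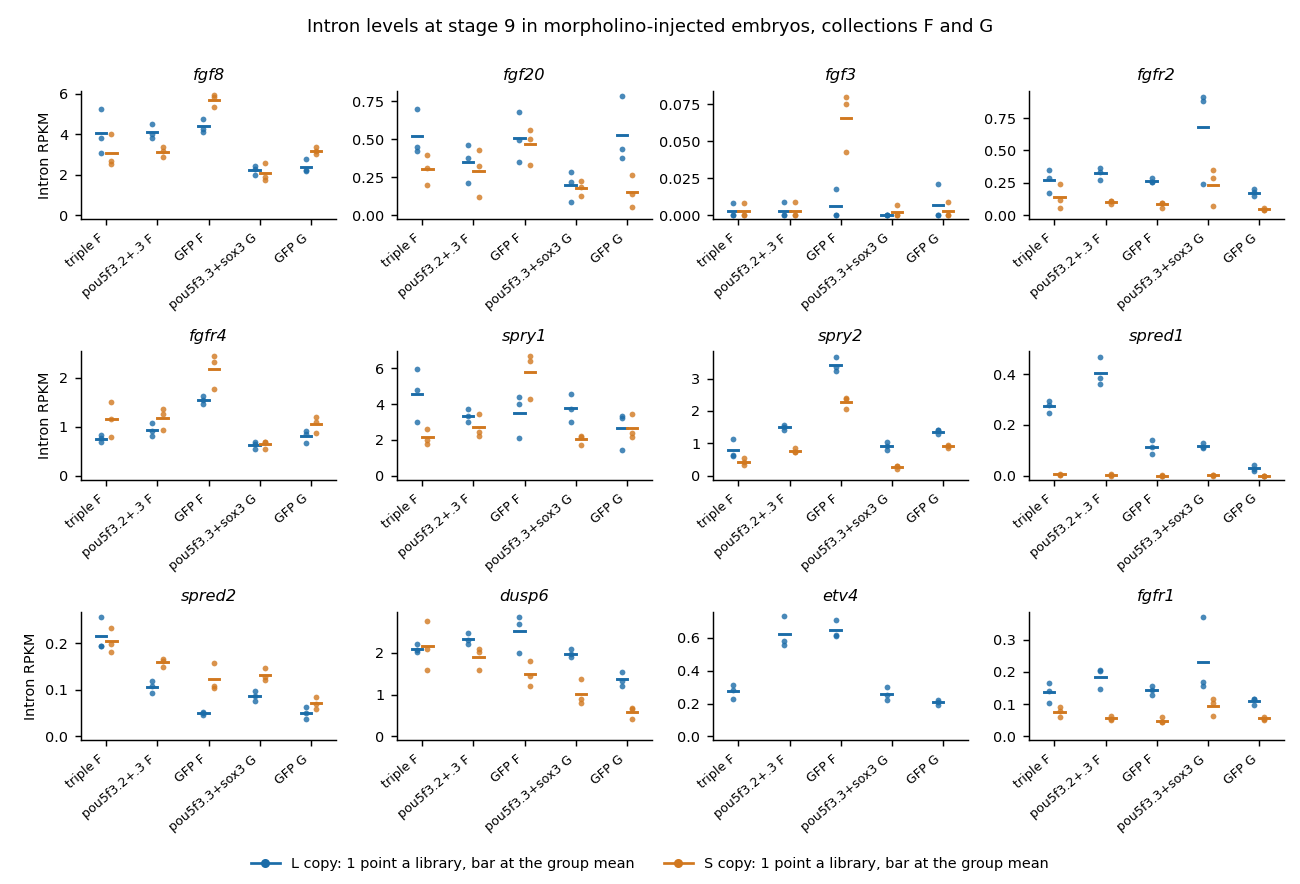
Intron level in RPKM (vertical axis) at stage 9 for 12 genes in the triple, double (pou5f3.2 and pou5f3.3) and GFP morpholino groups of collection F and the pou5f3.3 with sox3 and GFP morpholino groups of collection G (horizontal axis, left to right). Points are libraries and bars are group means. For spry2.S no treated library reaches its GFP group, with 0.550, 0.424 and 0.320 RPKM in the triple group against 2.36, 2.39 and 2.07.

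With CHX, which limits the comparison to transcription from proteins already present, the same morpholinos gave mostly lower values. In collection C, sox3 morpholino alone gave 0 of 49 genes higher (0% of all genes) and 0 lower (0.0181% of all) by edgeR, with 3 genes at an unadjusted p under 0.05 and 0 calls by DESeq2. With pou5f3.3 morpholino alone, 2 genes were lower (0.67% of all) and 0 were higher (0.0217% of all) by edgeR, with 9 genes at an unadjusted p under 0.05 and 1 lower by DESeq2. With both morpholinos, 7 genes were lower (2.17% of all) and 0 were higher (0.0399% of all) by edgeR, with 15 genes at an unadjusted p under 0.05 and 6 lower by DESeq2. The 3 comparisons share the 2 CHX GFP libraries of collection C. The median intron difference was −0.95 with pou5f3.3 morpholino, −0.02 with sox3 morpholino and −1.68 with both, against −0.22, 0 and −0.35 for all. With both morpholinos, intron reads were 0.875 to 0.982% of exon plus intron counts, against 1.28 to 1.54% with GFP morpholino, the 16 late blastula genes summed to 20.4 to 27.3 TPM, against 44.4 to 73.1, and the 7 ectoderm genes to 215.8 to 220.3 TPM, against 241.2 to 245.2. Their part in the differences was not tested.

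fgf8 was lowest with both morpholinos. Introns of fgf8.S were at 0.229 and 0.278 RPKM with both, at 0.354 and 0.369 with pou5f3.3 and at 1.11 and 1.01 with sox3 morpholino, against 1.04 and 1.26 with GFP morpholino. The log2 differences were −2.15 (SE 0.31, adjusted p = 2.24e-06), −1.65 (SE 0.28, adjusted p = 0.00016) and −0.11 (SE 0.23, adjusted p = 1). Introns of fgf8.L were at 0.161 and 0.127 RPKM with both, at 0.229 and 0.228 with pou5f3.3 and at 0.653 and 0.755 with sox3 morpholino, against 0.459 and 0.729 with GFP morpholino (log2 −2.03, −1.37 and 0.25, adjusted p = 0.000227, 0.0162 and 1). Exons of fgf20.L were at 0.219 and 0.316 TPM with both and at 0.181 and 0.314 with pou5f3.3 morpholino, against 0.954 and 1.72 (log2 −2.26 and −2.40, adjusted p = 0.0359 and 0.0409).

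With both morpholinos 4 receptors fell. Introns of fgfr4.L were at 0.165 and 0.167 RPKM, against 0.450 and 0.821 with GFP morpholino (log2 −1.92, SE 0.32, adjusted p = 4.20e-05), those of fgfr4.S at 0.138 and 0.147, against 0.260 and 0.677 (log2 −1.71), those of fgfr2.L at 0.021 and 0.035, against 0.115 and 0.187 (log2 −2.41), and those of fgfr1.L at 0.003 and 0.013, against 0.049 and 0.055 (log2 −2.56). None of the 17 feedback genes was called, with 5 at an unadjusted p under 0.05. CHX GFP replicate 2 decided most of these calls. Without it, fgf8.S alone kept its call with both morpholinos, while fgf8.L (log2 −1.64, adjusted p = 0.0729), fgfr4.L (log2 −1.41), fgfr4.S (log2 −0.83), fgfr2.L (adjusted p = 0.214), fgfr1.L (adjusted p = 0.206) and fgf20.L (adjusted p = 0.62) lost theirs, and with pou5f3.3 morpholino fgf8.S (log2 −1.44 and adjusted p = 0.327 in exons, −1.50 and 0.04 in introns, just under the fold required) and fgf20.L (adjusted p = 0.953) did. fgf20.L was also lost without either treated library of each comparison (adjusted p between 0.186 and 0.589), and fgfr1.L without CHX GFP replicate 1 (0.0521) or either treated library (0.4 and 0.0608). fgfr2.L was lost without replicate 1 of both morpholinos (0.131) and fgfr4.S without either of those libraries (0.0905 and 0.0657).

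In collection D, with the higher amounts of both morpholinos, 16 of 49 genes were lower than with GFP morpholino (8.04% of all genes) and 0 were higher (0.0616% of all) by edgeR, with 20 genes at an unadjusted p under 0.05 and 13 lower and 0 higher by DESeq2. They were 4 ligands, 5 receptors and 7 feedback genes. The median intron difference was −2.71, against −0.86 for all. Intron reads were 0.565 to 0.623% of exon plus intron counts, against 1.51 to 1.71%, and the 8 endoderm genes summed to 0.441 to 0.78 TPM, against 4.64 to 4.71. Their part in the differences was not tested.

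Exons of fgf8.S were at 0.261 and 0.054 TPM with the higher morpholino amounts, against 7.41 and 6.48 with GFP morpholino in collection D (log2 −5.42, SE 0.55, adjusted p = 2.76e-11), and exons of fgf8.L at 0.183 and 0.101 TPM, against 3.98 and 3.58 (log2 −4.64, SE 0.55, adjusted p = 3.13e-09). Introns of fgf8.S were at 0.155 and 0.027 RPKM, against 2.16 and 1.75 (log2 −4.47), and those of fgf8.L at 0.024 and 0.074 RPKM, against 1.23 and 1.01 (log2 −4.34). Introns of fgf20.S were at 0 in both, against 0.120 and 0.084 RPKM, at least 2.57-fold lower, and those of fgf20.L at 0 and 0.017 RPKM, against 0.246 and 0.147. In these introns every treated library of the 4 ligand genes lay below every GFP library. With 2 libraries a group this goes with the calls and adds no support to them. The share of all genes with such separation was not computed.

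The receptors of collection D followed. Introns of fgfr4.L were at 0.112 and 0.057 RPKM, against 1.27 and 1.15 (log2 −3.82, SE 0.29, adjusted p = 4.33e-15), and those of fgfr4.S at 0.051 and 0.035, against 0.566 and 0.480 (log2 −3.56). Introns of fgfr2.L were at 0.014 and 0.018 RPKM, against 0.261 and 0.221 (log2 −3.80), those of fgfr2.S at 0.002 and 0.006, against 0.056 and 0.050 (log2 −3.64), and those of fgfrl1.S at 0.004 and 0.006, against 0.034 and 0.029 (log2 −2.62). Among the feedback genes, introns of dusp6.S were at 0.018 and 0.028 RPKM, against 0.349 and 0.238 (log2 −3.44, SE 0.76, adjusted p = 0.00077). Introns of spry1.L (0 and 0.048 RPKM, against 0.682 and 0.305) and spry1.S (0 and 0.056, against 0.529 and 0.414) fell too.

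The remaining feedback genes called in collection D were spred1.L (introns at 0 and 0.002 RPKM, against 0.016 and 0.022), spred2.S (0.009 and 0.010, against 0.042 and 0.025), dusp6.L (0 in both, against 0.062 and 0.092, at least 1.26-fold lower) and spry2.L (0.019 and 0.015, against 0.301 and 0.063). etv4.L, near 0 in CHX embryos of both groups, had introns at 0.017 and 0.012 RPKM, against 0.018 and 0.014 (log2 −0.07, adjusted p = 1). Without any 1 of the 4 libraries the calls of fgf8.L, fgf8.S, fgfr2.L, fgfr4.L, fgfr4.S, fgfrl1.S and dusp6.S held. The lowest adjusted p at which another call was lost was 0.0612 (spry1.S without GFP replicate 2) and the highest 0.908 (spry2.L without GFP replicate 1). Without treated replicate 1 the calls of all the other 9 were lost (dusp6.L, fgf20.L, fgf20.S, fgfr2.S, spred1.L, spred2.S, spry1.L, spry1.S and spry2.L), and without treated replicate 2 those of all of these but fgfr2.S and spred1.L. Without GFP replicate 1 the same 7 were lost as without treated replicate 2, and without GFP replicate 2 those of dusp6.L, spred1.L and spry1.S.

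**Figure D4:**
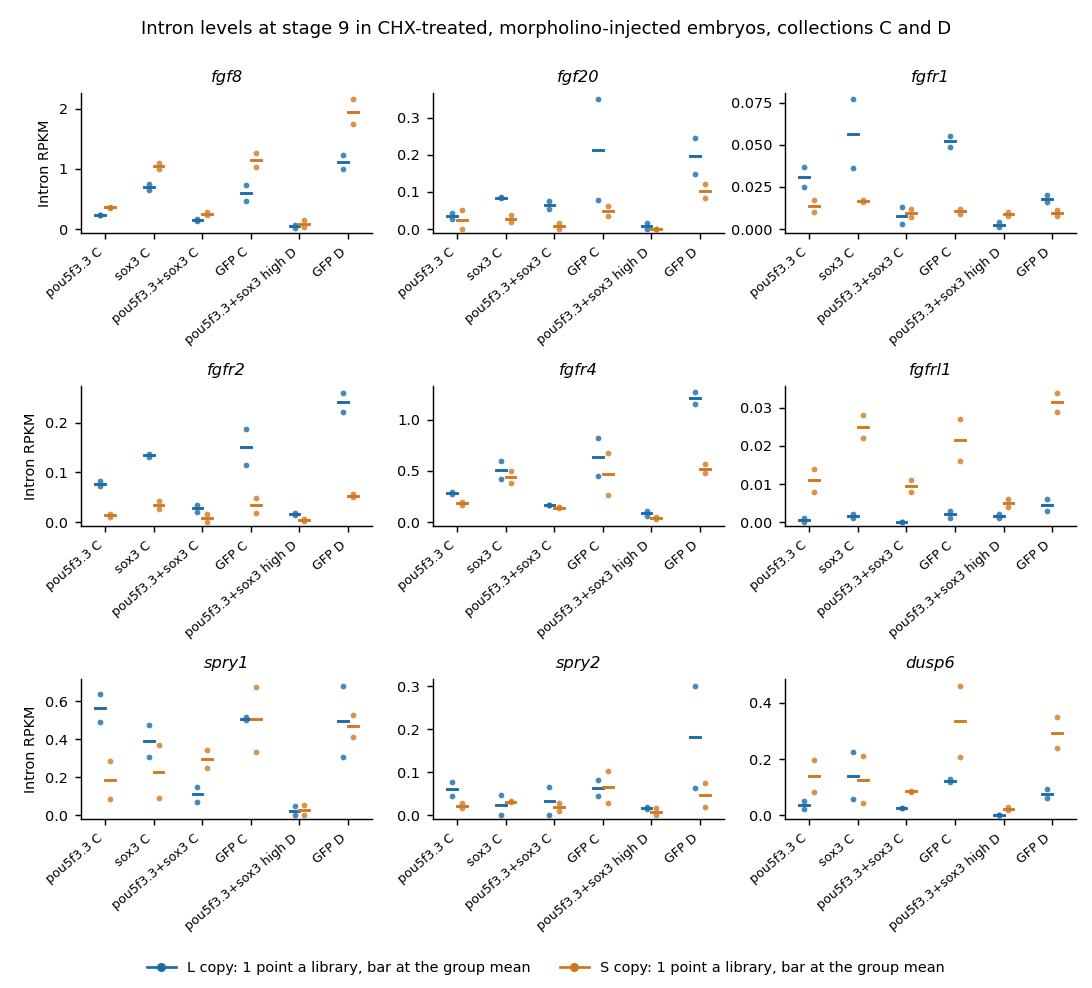
Intron level in RPKM (vertical axis) for 9 genes in CHX embryos at stage 9, with pou5f3.3, sox3, both and GFP morpholinos in collection C and the higher amounts of both and GFP morpholino in collection D (horizontal axis, left to right). Points are libraries and bars are group means. Introns of fgfr4.L are at 0.112 and 0.057 RPKM with the higher amounts, against 1.27 and 1.15 with GFP morpholino in D, and at 0.165 and 0.167 with both, against 0.450 and 0.821 in C.

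In collection F the triple injection was also given with CHX, with no CHX GFP group of that collection, so the 2 triple groups were compared. With CHX 24 of 49 genes were lower (31.2% of all genes) and 0 were higher (0.514% of all) by edgeR, where DESeq2 also gave 24 and 0 and 34 genes passed an unadjusted p of 0.05 in either direction. They were 4 ligands, 7 receptors, 11 feedback genes and 2 of the 7 other genes. Introns of spred1.L were at 0 in all 3 CHX libraries, against 0.296, 0.279 and 0.248 RPKM without CHX, at least 55.1-fold lower. Introns of fgf8.L were at 0.176, 0.150 and 0.210 RPKM, against 5.25, 3.83 and 3.06 (log2 −4.40, SE 0.20, adjusted p = 1.03e-25), and those of fgf8.S at 0.123, 0.195 and 0.083 RPKM, against 3.99, 2.53 and 2.67 (log2 −4.44). Introns of fgfr4.L had the smaller difference among the activated receptors, at 0.294, 0.374 and 0.189 RPKM, against 0.763, 0.694 and 0.829 (log2 −1.32, adjusted p = 1.42e-06, not called). The calls of fgfrl1.S (log2 −1.10 without CHX replicate 3, −1.29 and −1.49 without replicates 1 and 2 of the group without CHX) and spryd3.L (log2 −1.29 without CHX replicate 1 and −1.36 without replicate 2 of the group without CHX) were lost without those libraries.

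The effect of pou5f3.3 and sox3 morpholinos was set between CHX (collection C) and no CHX (collection G). In 7 of 49 genes it was lower with CHX (3.89% of all genes) and in 0 higher (0.156% of all) by edgeR, with 17 genes at an unadjusted p under 0.05 and 8 lower and 0 higher by DESeq2. Introns of fgfr2.L had a difference of −4.20 (SE 0.58, adjusted p = 9.47e-07), as they were lower with the morpholinos in C and higher in G, and introns of fgfr1.L one of −3.48 (SE 0.70, adjusted p = 0.000733). These 2 held without any 1 library. For introns of fgf8.L the difference was −1.81 (SE 0.40, adjusted p = 0.00254), for exons of fgf8.S −2.15, for introns of fgfr2.S −3.99, for introns of dusp6.S −2.55 and for introns of spred1.L −2.48. Without CHX GFP replicate 2 of collection C the differences of fgf8.L (−1.43, adjusted p = 0.134), fgf8.S (−1.67, 0.119), fgfr2.S (−3.05, 0.379) and spred1.L (adjusted p = 0.38) were lost, and without replicate 1 of that group those of dusp6.S (−1.89, 0.258) and spred1.L (0.0652). Without replicate 1 of both morpholinos in C those of dusp6.S (0.0949), fgfr2.S (0.115) and spred1.L (0.253) were lost, and without replicate 2 those of dusp6.S (0.103), fgf8.L (0.0592) and fgf8.S (0.0965). That of spred1.L was also lost without GFP replicate 2 or 3 or morpholino replicate 1 or 3 of collection G (adjusted p between 0.0563 and 0.0841). The collections also differ in day and in the amount of GFP morpholino (80 against 120 ng), which cannot be told apart from CHX.

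At stage 10.5, 19 of 49 genes were higher than at stage 9 in collection A (25.7% of all genes) and 7 were lower (14% of all). With scaling by DESeq2 size factors or by exon counts alone, these were 24 and 5 (over all genes 8285 higher and 2767 lower, or 8164 and 2870, against 7107 and 3878), since the median of all exon differences shifted by 0.262 or 0.236. By role 8 ligands (the intracellular relative fgf12.L among them), 6 receptors, 4 feedback genes and 1 other gene rose. Of the genes that fell, 3 were ligands, 3 feedback genes and 1 another gene. The median intron difference was 0.75 for these genes and 1.12 for all.

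Of the ligands that rose, fgf4.L and fgf16.S were at 0 TPM in both stage 9 libraries. At stage 10.5, fgf4.L stood at 7.03 and 11.4 TPM, at least 8.16-fold higher. fgf16.S stood at 0.862 and 1.01 TPM, at least 10.4-fold higher. Both homeologs of fgf3 and fgf20 already had exon reads in both stage 9 libraries and stood higher at stage 10.5. fgf3.S stood at 11.2 and 10.7 TPM, against 0.457 and 1.28 (log2 3.80, SE 0.28, adjusted p = 2.22e-19), and fgf3.L at 1.84 and 2.75 TPM, against 0.380 and 0.414 (log2 2.58). fgf20.L stood at 7.71 and 6.84 TPM, against 1.62 and 1.11 (log2 2.53), and fgf20.S at 6.40 and 7.16, against 1.98 and 2.49 (log2 1.74). fgf4.S was at 6.03 and 1.71 TPM, against 0.266 and 0, with libraries far apart. Calls were lost for fgf3.L without stage 10.5 replicate 2 (adjusted p = 0.0733), for fgf4.S without stage 10.5 replicate 1 (adjusted p = 0.053) and for fgf12.L, at most at 0.307 TPM, without stage 10.5 replicate 2 (0.451) or without stage 9 replicate 1 or 2 (0.116 and 0.0945). The calls of fgf3.L, fgf4.S and fgf12.L were also lost with DESeq2 (adjusted p = 0.548, 0.149 and 0.0865).

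fgf8 moved differently in exons and introns. Exons of fgf8.L stood at 48.9 and 55.3 TPM at stage 10.5, against 19.5 and 21.3 at stage 9, a log2 difference of 1.49 (adjusted p = 1.11e-13) just under the fold required. Introns of fgf8.L stood at 2.99 and 2.90 RPKM, against 6.56 and 7.65 (log2 −1.34), and introns of fgf8.S fell to 2.21 and 2.66 RPKM, against 7.07 and 8.69 (log2 −1.76, SE 0.16, adjusted p = 4.67e-14). With the 2 other scalings the last value was −1.46 and −1.48. Both homeologs of fgf7 fell, fgf7.S to 0.475 and 0.531 TPM, against 6.24 and 6.66 (log2 −3.53), and fgf7.L to 0.192 and 0 TPM, against 2.97 and 2.46 (log2 −4.58). For fgf7, too, stage cannot be told apart from the day and the parents of the embryos.

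The receptors split at stage 10.5. Exons of fgfr2.L stood at 48.4 and 49.2 TPM, against 5.62 and 5.94 at stage 9 (log2 3.21, SE 0.15, adjusted p = 1.60e-24), and exons of fgfr2.S at 23.2 and 22.7 TPM, against 0.687 and 1.16 (log2 4.78, SE 0.20). fgfrl1.L reached 2.96 and 2.47 TPM, against 0.110 and 0.200, and fgfrl1.S 4.71 and 5.43 TPM, against 0.331 and 0.506. Introns of fgfr1.S rose to 1.67 and 1.86 RPKM, against 0.031 and 0.039 (log2 5.60), and those of fgfr1.L to 2.42 and 2.35 RPKM, against 0.174 and 0.211 (log2 3.57), with exons of fgfr1.S at 89.2 and 91.2 TPM, against 86.2 and 82.7. Exons of fgfr4.S stood at 189.8 and 193.4 TPM, against 80.8 and 76.7 (log2 1.42, under the fold required), and those of fgfr3.L at 8.29 and 8.00 TPM, against 21.6 and 20.1 (log2 −1.22, likewise under it).

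Among the feedback genes, spry4.L stood at 43.1 and 40.3 TPM at stage 10.5, against 1.36 and 1.52 at stage 9 (log2 4.99, SE 0.19, adjusted p = 5.91e-29), spred1.L at 28.8 and 25.9 TPM, against 1.195 and 1.087 (log2 4.70, SE 0.24), and spry4.S at 8.66 and 8.06 TPM, against 1.23 and 1.32 (log2 2.85). Introns of spred2.L rose to 1.53 and 1.54 RPKM, against 0.336 and 0.399 (log2 2.00), without its exons. Introns of dusp6.L fell to 0.445 and 0.434 RPKM, against 2.99 and 3.06 (log2 −2.84, SE 0.27), with exons at 14.9 and 12.5 TPM, against 14.4 and 16.0. spry3.L fell to 0.490 and 0.670 TPM, against 3.11 and 3.23 (log2 −2.30), and spred3.S to 1.25 and 1.89 TPM, against 4.87 and 6.11 (log2 −1.66). The last call was lost with other scalings (log2 −1.36 and −1.39) and without stage 10.5 replicate 1 or stage 9 replicate 2 (log2 −1.42 and −1.49).

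The homeologs of a pair were not always equal partners. The L share of fgf8 exon TPM was 46.5 and 43.4% at stage 9 in collection A and 56.5 and 57.3% at stage 10.5. In collection F the L share of fgf8 introns was 56.9, 60.2 and 53.4% in the triple group and 55.9, 57.2 and 56.9% in the double group, against 43.7, 44.7 and 41.9% in the GFP group, so that no treated library overlapped the controls. The shares of fgf8 in collection G were 56.3, 53.4 and 46.8%, against 39.6, 40.8 and 47.6%, and overlapped. Differences between shares were not tested. How many of the 32 pairs separate in this way was not counted.

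For fgfr2, the L share of exon TPM was 98.4 and 98.9% at stage 5, 89.1 and 83.6% at stage 9 and 67.6 and 68.5% at stage 10.5, and for dusp6 it was 65.6 and 72.0%, 62.1 and 57.7%, and 37.7 and 34.7% at the same stages. For both genes each later stage named had the lower L share. For spred1 the L share was 97.1 and 96.8% at stage 10.5, and for spry2 it stayed between 40.8 and 57.1% in the stage 5, 9 and 10.5 libraries.

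Other genes of the pathway were taken from a list of 65 symbols (adaptors, Ras, MEK and ERK kinases, further phosphatases, co-receptors and known targets), of which 111 of 114 genes were tested. Of these 111, 61 had an intron entry, beside 9916 of all 27602 genes. At stage 9, 58 rose (52.3%, beside 35.4% of all genes) and 3 fell (2.7%, beside 6.44%) against stage 5. In triptolide 54 fell in A (48.6%, beside 27.4% of all) and 52 in B (46.8%, beside 29.8%). With CHX 41 were higher than in triptolide (36.9%, beside 14.2%), and 34 were lower (30.6%, beside 20.6%) and 2 higher (1.8%, beside 2.21%) than in DMSO. The lowest p at stage 9 belonged to the small GTPase gene hras.L, whose introns were at 1.58 and 1.71 RPKM, against 0.005 and 0.002 at stage 5 (log2 8.64). At stage 10.5, 38 rose (34.2%, beside 25.7% of all) and 11 fell (9.91%, beside 14%), led by the homeobox gene cdx1.S at 86.6 and 89.8 TPM, against 0.144 and 0.996 at stage 9 (log2 7.44).

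In the morpholino comparisons, 6 list genes were higher (5.41%, beside 3.86% of all genes) and 5 lower (4.5%, beside 2.83%) in the triple group of collection F. In the double group 4 were higher (3.6%, beside 2.24%) and 3 lower (2.7%, beside 1.62%), and in collection G 4 were higher (3.6%, beside 3.41%) and 4 lower (3.6%, beside 1.45%). The phosphatase gene dusp1.S, which acts on MAP kinases, was at 9.24, 10.8 and 9.22 TPM in the triple group, against 95.9, 96.5 and 100.6 in the GFP group (log2 −3.37), and at 8.84, 15.7 and 11.3 TPM in collection G, against 57.4, 41.1 and 56.0 (log2 −2.13). With CHX 5 list genes were lower with both morpholinos in collection C (4.5%, beside 2.17% of all) and 23 in collection D (20.7%, beside 8.04%), where the heparan sulfatase gene sulf1.L had a log2 difference of −3.68. With CHX 57 list genes were lower in the triple group of F than without it (51.4%, beside 31.2% of all).

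**Figure D5:**
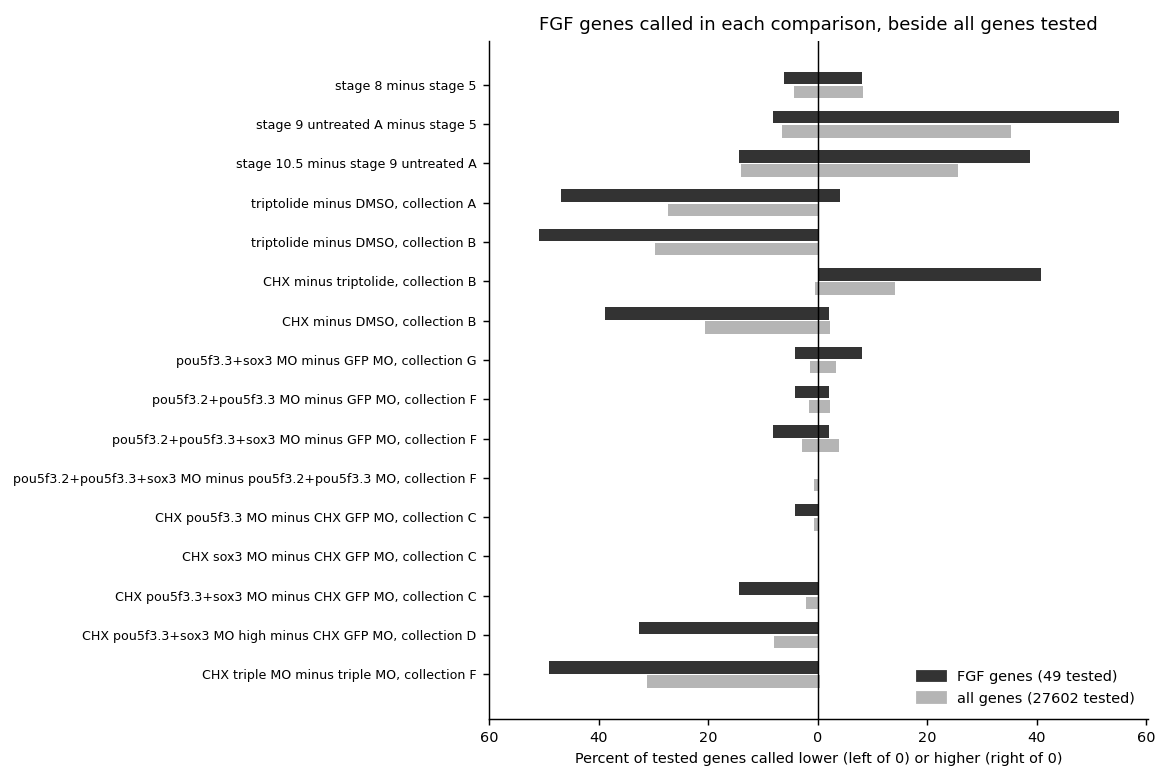
Share of genes called (horizontal axis, percent; lower left of 0, higher right of 0) in 16 comparisons (vertical axis), with dark bars for the 49 FGF genes tested and grey bars for all 27602 genes. In CHX against triptolide, 20 of 49 FGF genes were higher beside 14.2% of all genes, and in collection D 16 of 49 were lower beside 8.04%, whereas at stage 8 the 4 of 49 that were higher stand beside 8.31%. An intron entry was tested for 29 of the 49 and for 9916 of the 27602, which also bears on these shares.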

How the data were processed

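RNA-seq of 60 libraries was used, 53 of them (29 groups over all) in the fit. Per the labels and the study's methods, the authors aligned reads with HISAT2 (2.2.1 in the submitters' processing notes, where the study's methods give another version) to the X. laevis v9.2 genome and counted them by strand with featureCounts (2.0.1) over exons and over introns masked for stage 5 coverage, other exons and repeats. The deposited count tables hold raw counts, and the deposited TPM (exon) and RPKM (intron) values are the authors' own scaling of them.

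Exon and intron counts were kept as separate entries, filtered (exon RPM of at least 0.5 in a library; intron count above 10 with RPKM of at least 0.25), scaled together by TMM and tested with edgeR's quasi-likelihood test (4.0.16, in R 4.3.3 with the data.table package, 1.17.8) in 1 fit, with Benjamini-Hochberg adjustment over all 27602 exon and 9916 intron entries of each of 16 comparisons and 2 differences of effects. The script was tested on simulated data. Calls needed a difference of 1.5 or more on the log2 scale and an adjusted p below 0.05. Each SE is the size of the log2 difference divided by the square root of the F statistic of the same test. It therefore adds nothing independent of the p-value. Against a group at 0, folds are bounds computed with 3 counts per library. Named were genes averaging at least 1 TPM in a group or called, and at most 3 called pathway genes a comparison. The alternatives were DESeq2 (1.42.0), other scalings, no filter, a log2 difference of at least 1, exons alone, a fit of the libraries compared, a replicate block and leaving out each library. Exon counts of 6809284 to 25358689 per library limit what low genes can show. Members and lists were chosen with earlier results of these data known. All libraries of collection H were left out of the fit, both those marked as discarded and the GFP morpholino libraries without CHX.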

Additional observations from a re-analysis of the deposited data

Results flagged for a closer look

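Differences between effects passed the test for 8 values. The effect of pou5f3.3 and sox3 morpholinos in CHX embryos (collection C) minus that without CHX (collection G) was −4.20 on the log2 scale for introns of fgfr2.L (adjusted p = 9.47e-07), −3.99 for introns of fgfr2.S (0.0104), −3.48 for introns of fgfr1.L (0.000733), −2.55 for introns of dusp6.S (0.0163), −2.48 for introns of spred1.L (0.0488), −2.15 for exons of fgf8.S (0.00281) and −1.81 for introns of fgf8.L (0.00254). Collection and the amount of GFP morpholino differ along with CHX and cannot be told apart from it. The effect of triptolide in collection B minus that in collection A was −4.02 for introns of fgfr4.L (adjusted p = 0.0442).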

How the results depend on the processing

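None of the 288 called values changed direction under an alternative, and the directions of values that were not called were not compared. With exons alone deciding, the genes called numbered 14 at stage 9 against stage 5, 13 and 10 in triptolide A and B, 5 for CHX against triptolide, 6 for CHX against DMSO, 1 in collection G, 0 for both groups of collection F against GFP morpholino, 3 for both morpholinos in C, 3 in D, 8 for CHX in the triple group, 0 for the difference of triptolide effects and 1 for that of morpholino effects. With a log2 difference of at least 1, 6 genes were called in the double and 9 in the triple group of F, 2 between them and 5 with pou5f3.3 morpholino in C. The 2 calls of the last comparison became 1 with no filter, with DESeq2, with the replicate block and in a fit of its libraries alone. The 1 difference of triptolide effects became 0 with DESeq2 size factors, exon TMM factors or a fit of its libraries alone, 3 with no filter, 3 with DESeq2 (without fgfr4.L), and 2 with the replicate block.

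Leaving out 1 library gave 6 to 7 calls at stage 8, 28 to 32 at stage 9, 25 to 26 at stage 10.5, 24 to 26 in triptolide A, 25 to 25 in triptolide B, 17 to 18 for CHX against triptolide, 17 to 21 for CHX against DMSO, 4 to 5 in G, 3 to 3 in the double and 4 to 5 in the triple group of F, 0 to 0 between them, 0 to 5 with pou5f3.3, 0 to 0 with sox3 and 1 to 6 with both morpholinos in C, 7 to 13 in D, 22 to 25 for CHX in the triple group, 0 to 1 for the difference of triptolide effects and 3 to 8 for that of morpholino effects. The cause of these changes was not tested.

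The replicate numbers were not taken to pair the libraries: correlations of same-numbered deviations ran from 0.0805 to 0.0955 in A, −0.337 to −0.0544 in B, −0.0233 to 0.0582 in C, −0.141 to 0.187 in F and −0.0907 to 0.0623 in G, and stood at 0.195 in D, which has 2 pairs. With the block, 199 of 206 called values kept their call and 7 lost it, among them introns of dusp6.L in D (log2 −4.76, adjusted p = 0.0557). DESeq2 kept 264 of 288. Other scalings moved the median of all exon differences most at stage 10.5 (0.262 and 0.236). Shifts of more than 0.1 were also found at stage 9 (0.116 and 0.159) and in triptolide A (−0.191) and B (−0.13). The same held for CHX in the triple group (−0.105) and for the difference of morpholino effects (−0.101). Groups of 2 libraries and introns with few reads limit most CHX comparisons.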

Other observations

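Some exon levels differed between collections in which introns were near 0. spred1.S had 18.3 and 18.5 TPM with CHX and GFP morpholino in collection D, and 0.444 and 0.2 TPM in collection C. spred1.L had 1.15 and 1.11 TPM in D, and 5.95 and 7.66 TPM in C. fgf2.L had 4.55 and 4.97 TPM in the same D group, and 0 TPM in both CHX libraries of collection B. spred3.S had 0.701 and 0.263 TPM there, and 17.4, 17.2 and 13.9 TPM with GFP morpholino in collection F. These differences were not tested.

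The CHX libraries of collection H were marked as discarded, and the study names a likely problem with their CHX treatment. In them, introns of fgf8.L stood at 0.361 and 0.366 RPKM with the triple injection, against 1.25, 1.36 and 1.22 with GFP morpholino. Introns of fgf8.S stood at 0.588 and 0.501 RPKM, against 1.80, 2.80 and 2.33. Introns of spry2.S stood at 0.010 and 0.059 RPKM, against 0.368, 0.187 and 0.323, and those of fgfr2.L at 0.435 and 0.259 RPKM, overlapping the 0.463, 0.402 and 0.334 RPKM with GFP morpholino. In collection E, with 1 library a group, introns of spry2.L stood at 1.75 RPKM with pou5f3.3 and sox3 morpholinos, 5.36 RPKM with GFP morpholino and 3.29 RPKM in untreated embryos, those of spry2.S at 1.25, 3.50 and 2.56 RPKM, and those of spred1.L at 0.337, 0.191 and 0.063 RPKM, in the same order.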
